A study of Mus musculus with 2 samples.

Results

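This account describes 9 genes of glycogen synthesis and breakdown in mouse gastrocnemius: Pygm, Phka1, Phkb, Phkg1, Gys1, Gbe1, Ugp2, Ppp1r3a and Ppp1r3c. They were taken by gene symbol from the read counts of both libraries, without regard to their values, and all 9 had reads in both, among 14675 annotated genes with reads in either library. The tissue, a large and mainly fast calf muscle, came from males of the hybrid mouse strain B6CASTF1/J aged 2 months, a first-generation cross of C57BL/6J and CAST/EiJ. The 2 libraries, replicate 1 and replicate 2, were made from 2 µg of RNA each, form a single group with no treatment named and were read by long-read RNA sequencing, in which a read can follow a transcript from end to end. No condition was compared with another, so no p-value is given. The labels number the males differently but give both libraries the same donor identifier, so the spread between them may be partly technical.

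Glycogen is the store of glucose that a muscle fibre draws on during contraction. In synthesis, UDP-glucose pyrophosphorylase (Ugp2) makes the activated sugar, glycogen synthase (Gys1) adds it to the growing chain and the branching enzyme (Gbe1) introduces branch points. In breakdown, glycogen phosphorylase (Pygm) releases glucose 1-phosphate, and phosphorylase kinase switches it on when calcium or hormone signals arrive. That kinase is a complex of equal numbers of regulatory alpha (Phka1) and beta (Phkb), catalytic gamma (Phkg1) and delta subunits. Protein phosphatase 1 reverses these switches where targeting subunits, among them Ppp1r3a and Ppp1r3c, hold it on the glycogen particle.

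Replicate 1 held 1107128 reads of annotated genes and replicate 2 held 1402875. Levels are given in CPM, a gene's reads in every 1000000 of these. They are not divided by transcript length, since a long read is counted once whatever the length of its transcript. Whether transcripts of unlike length were read equally well was not tested, so ratios between genes are ratios of reads. A count of 0 allows a level of up to 3 counts, which is 2.71 CPM in replicate 1 and 2.14 CPM in replicate 2. Counting intervals at 95% cover only the counting error of reads and leave out variation between animals and library preparations. The reads carry no molecular identifiers, so repeated reads of the same molecule could not be told apart. All 6 muscle fibre markers examined were abundant, with a summed level of 301843 and 276437 CPM, whereas the 4 liver markers (Alb, Apoa1, Ttr and Gys2) and the 3 cardiac markers (Myl7, Nppa and Tnnt2) had no reads. Some markers of other cell types were also read: fibroblast markers summed to 567 and 634 CPM and erythroid markers to 135 and 87.0. Adipocyte markers summed to 56.9 and 76.3 CPM, all from Fabp4 and Cfd, while Adipoq, Plin1 and Lep had no reads. Markers of smooth muscle, endothelium and Schwann cells had reads at lower summed levels. Of the brain and glia markers only Aqp4 was read (9 and 15 reads), with none of Gfap or Snap25. Macrophage markers had 1 read in each library, and Cd68 had none. The libraries differed in fibre-type markers: the slow myosin gene Myh7 stood at 503 CPM in replicate 1 and 2838 CPM in replicate 2, and Myh4, the myosin of the fastest fibres, stood at 14898 and 18498 CPM. The share of Myh4 in the reads of 4 fibre-type myosin genes was 87.2% and 69.6%.

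Among the enzymes of breakdown, Pygm was the most abundant of the 9 genes in both libraries. It had 4027 reads in replicate 1 and 3406 in replicate 2, or 3637 and 2428 CPM, a mean of 3033 ± 855 CPM (SD, n = 2), which placed it 25th among all annotated genes. The kinase subunits followed at lower levels. Phka1 stood at 509 and 570 CPM (539 ± 42.5), Phkb at 286 and 299 CPM (293 ± 9.23), and Phkg1 at 235 and 177 CPM (206 ± 40.6). Thus reads of the alpha subunit exceeded those of beta in both libraries, by 1.78-fold (interval 1.55 to 2.05) and 1.90-fold (1.69 to 2.15), and those of gamma by 2.17-fold (1.87 to 2.52) and 3.21-fold (2.78 to 3.71). Beta in turn exceeded gamma by 1.22-fold (1.03 to 1.44) and 1.69-fold (1.44 to 1.98). The order alpha, beta, gamma was therefore the same in both libraries although the ratios to gamma moved.

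Of the synthesis enzymes, Ugp2 was the highest and Gbe1 the lowest. Ugp2 had 573 and 857 reads, or 518 and 611 CPM (564 ± 66.0). Gys1 had 319 and 501 reads, or 288 and 357 CPM (323 ± 48.8). Gbe1 had 62 and 147 reads, or 56.0 and 105 CPM (80.4 ± 34.5), the widest relative gap among the 9 genes. Phosphorylase reads outnumbered glycogen synthase reads 12.6-fold in replicate 1 (interval 11.3 to 14.2) and 6.80-fold in replicate 2 (6.19 to 7.48), so the direction held in both and the size did not. By contrast, Ugp2 over Gys1 was 1.80-fold (1.56 to 2.07) and 1.71-fold (1.53 to 1.91), with overlapping intervals.

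The targeting subunits differed several-fold from each other. Ppp1r3c, which encodes the widely expressed subunit PTG, stood at 270 and 223 CPM (247 ± 33.2), and Ppp1r3a, the striated muscle subunit, at 53.3 and 62.7 CPM (58.0 ± 6.67). Ppp1r3c exceeded Ppp1r3a by 5.07-fold (interval 3.82 to 6.82) in replicate 1 and by 3.56-fold (2.80 to 4.56) in replicate 2. In mean level the 9 genes ran Pygm, Ugp2, Phka1, Gys1, Phkb, Ppp1r3c, Phkg1, Gbe1, Ppp1r3a, and each library by itself gave this order. The ranges over the 2 libraries overlapped for Ugp2 and Phka1, for Gys1 and Phkb, for Ppp1r3c and Phkg1, and for Gbe1 and Ppp1r3a. Those ranges ignore that both genes of a pair were read in the same library, so they do not decide whether the genes differed. Taken pair by pair within replicate 1, the ratios of the first gene to the second were 1.02, 1.01, 1.15 and 1.05. Within replicate 2 they were 1.07, 1.19, 1.26 and 1.67. Among these pairs, the counting intervals of the levels were separate only for Gbe1 (88.5 to 123 CPM) and Ppp1r3a (50.3 to 77.3 CPM), in replicate 2. Levels with overlapping intervals can still differ. Intervals of the ratio itself were not computed for these pairs, so whether the other pairs differed was not decided.

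**Figure D1:**
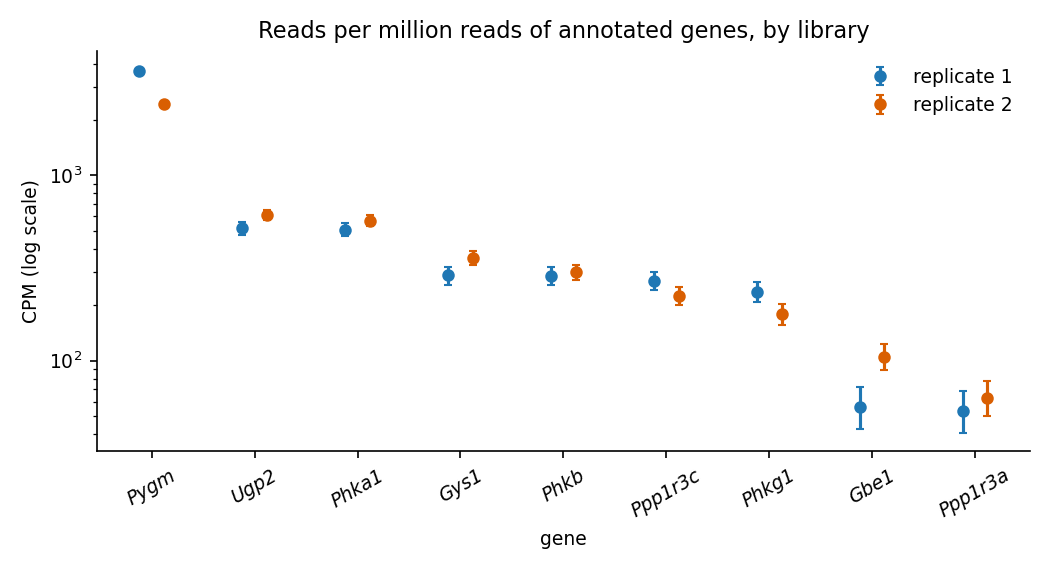
Level of each gene in CPM (log axis) in replicate 1 and replicate 2; points are libraries and bars are 95% Poisson counting intervals. Pygm lies at 3637 and 2428 CPM, and Gbe1 and Ppp1r3a are the lowest.

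None of the 9 genes was over 2-fold apart between the libraries, where 4.42% of the 4294 genes with at least 50 summed reads were. On the log2 scale, CPM in replicate 2 over replicate 1 had a median of 0.16 among the 9 genes and 0.11 among those 4294. Pygm, the phosphorylase, was 1.50-fold higher in replicate 1 (interval 1.43 to 1.57), Phkg1, the catalytic subunit, 1.32-fold (1.11 to 1.58) and Ppp1r3c 1.21-fold (1.03 to 1.42). These 3 genes were the only ones of the 9 with fewer CPM in replicate 2. In the opposite direction, Gbe1 was 1.87-fold higher in replicate 2 (interval 1.38 to 2.56), Gys1 1.24-fold (1.07 to 1.43), Ugp2 1.18-fold (1.06 to 1.31) and Phka1 1.12-fold (1.00 to 1.25). The intervals of Phkb (log2 ratio 0.06, interval -0.15 to 0.28) and Ppp1r3a (0.24, -0.26 to 0.74) included no difference. Median-ratio size factors, which move every log2 ratio down by 0.10, left the direction of each of these genes as given except for Phkb, but the intervals of Ugp2 and Phka1 then included no difference. By counting intervals, 5 of the 9 genes differed under that scaling and 7 under total reads, and the share of all 4294 genes was 24.7% and 25.5%. Such intervals narrow with read depth, which was not matched between the 9 genes and the 4294, so these shares are not on equal footing. All 4 fibre-type myosin genes were higher in replicate 2, Myh7 5.64-fold, Myh2 3.15-fold, Myh1 3.09-fold and Myh4 1.24-fold, while the 9 genes went both ways, and the part of fibre types in these differences was not tested. In bulk tissue, fewer fibres of a type and less RNA per fibre cannot be told apart.

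**Figure D2:**
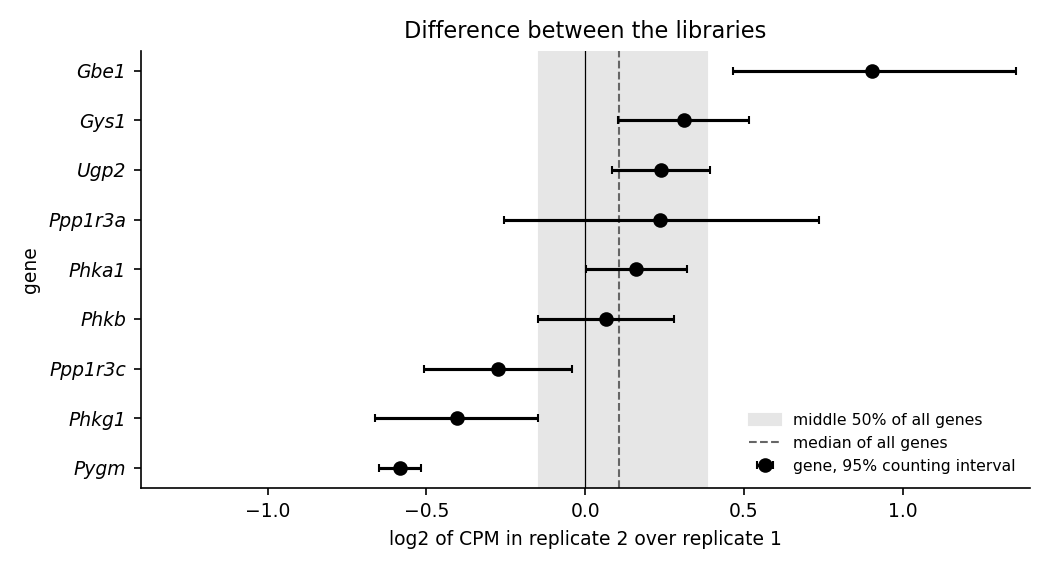
Log2 ratio of CPM in replicate 2 over replicate 1 for each gene with its 95% counting interval; the dashed line is the median and the grey band the middle 50% of the 4294 genes with at least 50 summed reads. Pygm at -0.58 and Gbe1 at 0.90 are the extremes, and none reaches 1 in either direction.

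Each enzyme with tissue-specific paralogs was represented almost entirely by its muscle form. Pygm held 99.9% and 99.8% of phosphorylase reads, while the brain form Pygb had 4 and 6 reads and the liver form Pygl 1 and 0. Gys1 held all glycogen synthase reads, since the liver form Gys2 had none, which allows it a share of up to 0.940% and 0.599%. Phka1 held 99.8% of alpha subunit reads in both libraries, and Phka2, its liver counterpart, had 1 and 2 reads. Phkg1 held 98.5% (Wilson interval 96.2 to 99.4) and 97.6% (95.0 to 98.9) of gamma subunit reads against 4 and 6 reads of Phkg2. The division among 7 targeting subunits was less one-sided. Ppp1r3c held 80.8% (76.5 to 84.5) and 75.4% (71.1 to 79.3) of their reads and Ppp1r3a 15.9% (12.6 to 20.0) and 21.2% (17.5 to 25.4). Of the other subunits, Ppp1r3f had 4 and 10 reads, Ppp1r3d 4 and 2, Ppp1r3e 3 and 0, Ppp1r3b, the subunit known from liver, 1 and 2, and Ppp1r3g none.

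Around these 9 genes, 34 further genes of glycogen and glucose phosphate handling were read out, of which 17 reached 50 summed reads and none was over 2-fold apart. Their median log2 ratio was -0.04. The counting interval excluded equal levels for 7 of the 17, where it did so for 25.5% of the 4294 genes, again without matching read depth. Of the 7, Ppp1cb and Hk2 were higher in replicate 2, and 5 were lower there, among them Pgm1 and Stbd1, the last of which is named after its values were seen. With median-ratio size factors none of the 17 was higher by this measure and 6 were lower, against 24.7% of all genes in either direction. Pgm1, the phosphoglucomutase that interconverts glucose 1-phosphate and glucose 6-phosphate, was the leading gene of its group at 1521 and 1169 CPM. Gaa, the lysosomal glucosidase, stood at 400 and 388 CPM. Ppp1cb, the leading catalytic subunit of protein phosphatase 1, stood at 265 and 313 CPM, and Prkaca, a catalytic subunit of protein kinase A, at 277 and 308 CPM. Hexokinase 2 (Hk2), which traps glucose entering the fibre, stood at 128 and 169 CPM, whereas G6pc, the liver glucose 6-phosphatase, had no reads.

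The alpha subunit of phosphorylase kinase was read as 2 main isoforms. Phka1 lies on the X chromosome (mm10 chrX:102513975-102644246, minus strand). An annotated coding exon of 177 nt at chrX:102557096-102557272, a whole number of 59 codons, was present in Phka1-202 and absent from Phka1-201, the GENCODE M21 transcripts with the most reads. Skipping of this stretch is known from the shorter alpha subunit of slow and cardiac muscle. The sequences below show the exon in capitals between 20 bases of each adjoining exon, and the junction formed without it with the downstream exon in capitals.
Phka1 exon: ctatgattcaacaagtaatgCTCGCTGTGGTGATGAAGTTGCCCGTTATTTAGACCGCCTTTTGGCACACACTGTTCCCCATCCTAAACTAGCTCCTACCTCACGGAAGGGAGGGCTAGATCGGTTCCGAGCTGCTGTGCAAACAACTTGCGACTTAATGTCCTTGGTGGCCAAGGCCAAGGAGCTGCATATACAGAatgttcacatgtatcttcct
Phka1 junction without the exon: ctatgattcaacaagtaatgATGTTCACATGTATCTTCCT
Of reads spanning this position, 352 of 524 carried the exon in replicate 1, or 67.2% (Wilson interval 63.0 to 71.1), and 430 of 737 in replicate 2, or 58.3% (54.8 to 61.9). Both forms were thus well represented in each library, the longer form was the majority in each, and the intervals were separate. Among reads of annotated transcripts alone the shares were 67.7% (63.2 to 72.0) and 57.9% (53.9 to 61.8). In unannotated chains they were 65.2% (50.8 to 77.3) of 46 reads and 53.3% (42.2 to 64.2) of 75 reads, lower in replicate 2 with overlapping intervals. In incomplete splice matches, reads that cover only part of an annotated intron chain, they were 63.8% (49.5 to 76.0) of 47 reads and 68.2% (56.2 to 78.2) of 66 reads. These fewer reads did not show the drop, but their intervals are too wide to exclude it. Replicate 2, with the lower inclusion, was the library with the higher level of all 4 fibre-type myosins and the smaller share of Myh4. With 2 libraries that relation was not tested. Phka1-202 took 53.2% and 44.3% of the gene's reads outside the genomic class, and Phka1-201 took 25.6% and 32.8%. A chain that kept this exon but skipped another of 39 nt, by a junction in no M21 transcript of the gene, had 8 and 5 reads.

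The beta subunit was read mainly as an isoform that GENCODE M21 does not hold. Phkb (chr8:85840959-86061376, plus strand) had 249 of 317 reads in replicate 1 and 349 of 420 in replicate 2 in chains with an unannotated splice site, and 2 and 1 reads in an annotated transcript. A single intron chain of 31 exons held 238 and 326 reads, 78.8% and 78.6% of the gene's reads outside the genomic class. Its introns differed from those of Phkb-201, the longest annotated transcript, in 2 places. The first was an internal exon of 91 nt at chr8:86025198-86025288 that overlaps no M21 exon of the gene. It took the place of the annotated coding exon of the same length at chr8:86026457-86026547, which is shown in capitals with 20 bases of each adjoining exon because it is the one the muscle reads mostly leave out.
Phkb annotated exon: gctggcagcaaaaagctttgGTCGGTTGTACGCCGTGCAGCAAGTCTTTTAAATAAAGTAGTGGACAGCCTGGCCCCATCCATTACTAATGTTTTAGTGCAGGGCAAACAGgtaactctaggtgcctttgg
The unannotated exon was carried by 287 of 295 spanning reads in replicate 1, or 97.3% (94.7 to 98.6), and by 371 of 386 in replicate 2, or 96.1% (93.7 to 97.6). The annotated one was carried by 7 reads (2.37%, 1.15 to 4.82) and 13 reads (3.37%, 1.98 to 5.68). No read held both, which allows a share of up to 1.02% and 0.777%, and 1 and 2 reads held neither. The exons were thus used one at a time and in nearly the same proportion in both libraries. Mammalian beta subunit genes are known for a pair of mutually exclusive exons used differently between tissues. The chain with the annotated exon in its place and otherwise the same junctions had 5 and 9 reads.

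The second difference lay at the 5′ end of Phkb. Exon 2 of Phkb-201, of 109 nt, was skipped by 253 of 267 spanning reads (94.8%, interval 91.4 to 96.9) and 354 of 373 (94.9%, 92.2 to 96.7), and its exact edges were seen in 2 and 4 reads. The annotated coding start of Phkb-201 falls in this exon, whereas that of Phkb-206, a short annotated transcript with the junction the reads used, falls in exon 1. First exons were otherwise uniform: the splice donor of the first exon shared by Phkb-201 and Phkb-206 opened 96.7% and 97.3% of reads that began with a first exon, and that of Phkb-204 opened 1.85% and 1.60%.

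The gamma subunit gene Phkg1 (chr5:129863421-129898549, minus strand) was read mainly as Phkg1-201, with 188 and 176 reads. An in-frame coding exon of 66 nt at chr5:129869461-129869526 was the only internal exon of this gene with a mean inclusion between 5 and 95%. It is shown in capitals with 20 bases of each adjoining exon, followed by the junction formed without it.
Phkg1 exon: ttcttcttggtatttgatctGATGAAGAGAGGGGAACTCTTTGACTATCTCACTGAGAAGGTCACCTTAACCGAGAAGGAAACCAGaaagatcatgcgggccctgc
Phkg1 junction without the exon: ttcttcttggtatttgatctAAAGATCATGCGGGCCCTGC
It was included in 220 of 233 spanning reads (94.4%, 90.7 to 96.7) and 207 of 231 (89.6%, 85.0 to 92.9), with overlapping intervals. The skipping junction is in no M21 transcript of the gene, and its full chain of 9 exons had 12 and 18 reads. All spanning reads of annotated transcripts carried the exon. Across the 9 genes, 254 internal exons with exact edges had at least 20 spanning reads in each library. Of these, 121 had a mean inclusion over 95%, and 4 lay between 5 and 95%: those of Phka1 and Phkg1 and a pair in Ppp1r3a. The remaining 129 were under 5%.

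In Ugp2 (chr11:21321138-21371201, minus strand) the variation lay in the first exon. Ugp2-202 opens with an exon of 291 nt at chr11:21370187-21370477 and Ugp2-201 with one of 187 nt at chr11:21371015-21371201, which lies 537 bases upstream of the other. Reads beginning with the exon of Ugp2-202 numbered 420 of 554 in replicate 1, or 75.8% (72.1 to 79.2), and 686 of 833 in replicate 2, or 82.4% (79.6 to 84.8). Those beginning with the exon of Ugp2-201 made up 24.0% (20.6 to 27.7) and 17.5% (15.1 to 20.3). The downstream first exon was the majority in both libraries, and the intervals of the libraries were separate. The choice bears on the protein: Ugp2-202 starts its coding sequence in its own first exon, 33 bases or 11 codons before the start codon that Ugp2-201 uses. The start of the Ugp2-202 coding sequence is shown with both ATG codons in capitals.
Ugp2-202 coding start: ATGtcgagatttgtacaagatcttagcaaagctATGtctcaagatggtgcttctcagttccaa
RefSeq gives Ugp2 a promoter window (250 bases before to 50 after a start, build GRCm38.p6) near each of these exons. Both are shown because both first exons were used, as scored by their splice donors. Capitals mark CCAAT and GGGCGG on either strand.
Ugp2 upstream window, chr11:21371218-21371517: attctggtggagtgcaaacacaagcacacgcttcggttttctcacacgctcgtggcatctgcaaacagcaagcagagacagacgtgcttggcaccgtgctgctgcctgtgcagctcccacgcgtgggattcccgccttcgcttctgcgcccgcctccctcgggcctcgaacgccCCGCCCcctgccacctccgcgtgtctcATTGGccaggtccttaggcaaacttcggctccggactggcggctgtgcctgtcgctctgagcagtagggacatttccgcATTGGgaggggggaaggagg
Ugp2 downstream window, chr11:21370580-21370879: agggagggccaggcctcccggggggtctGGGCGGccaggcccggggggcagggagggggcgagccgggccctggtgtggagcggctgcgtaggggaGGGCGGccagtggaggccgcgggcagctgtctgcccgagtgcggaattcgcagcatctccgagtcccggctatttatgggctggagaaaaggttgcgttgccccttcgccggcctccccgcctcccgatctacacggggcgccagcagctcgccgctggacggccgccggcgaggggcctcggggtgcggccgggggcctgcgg
The RefSeq start lies 66 bases before the first base of the Ugp2-201 exon for the upstream window and 152 bases before that of Ugp2-202 for the downstream window. The upstream window, near the first exon with fewer reads, held CCAAT 2 times and GGGCGG once. The downstream window held no CCAAT and GGGCGG 2 times. CCAAT occurs in 37.4% and GGGCGG in 35.7% of 32851 RefSeq windows of 300 bases. The GC content was 63.3% upstream and 76.0% downstream, against a median of 52.7% over all windows, and neither held TATAAA, which 13.6% of windows do. These matches describe the letters only. Among donors with at least 10 summed reads, no other gene had a second one above 1.85% of its reads: the leading donor opened from 96.6% to 100% of reads in each library.

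The branching enzyme gene Gbe1 (chr16:70313949-70569716, plus strand) had no read in an annotated transcript, and 54 of 61 reads in replicate 1 and 137 of 145 in replicate 2 outside the genomic class shared a single chain of 16 exons. That chain had 14 of its 15 introns in common with Gbe1-203. The remaining intron was placed as in Gbe1-201, 4 bases before the Gbe1-203 position at both of its ends. The spliced sequence over this junction is the same for both placements, shown with the 4 bases that can fall in either exon in capitals.
Gbe1 junction: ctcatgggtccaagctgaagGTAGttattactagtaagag
The chain therefore spells the exon sequence of Gbe1-203 at this junction, and the placement of 4 bases is what sets it apart from that transcript. At the other place where the annotated transcripts differ, 58 and 144 reads used the intron of Gbe1-203 and none that of Gbe1-201.

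Part of the reads of the targeting subunit genes fell in single-exon models, and for Ppp1r3c the class of these differed between the libraries. Ppp1r3c (chr19:36731731-36736653, minus strand) has 2 exons, and 164 and 175 reads matched the annotated transcript. A single-exon model of the last exon, chr19:36731731-36734354, held 129 reads in replicate 1 as an incomplete splice match. In replicate 2 a single-exon model from the same upstream edge held 131 reads but was classed as genomic, with a 3′ end placed 608 bases further. Reads with the intron removed were 56.9% (51.2 to 62.3) and 58.1% (52.6 to 63.5) of the gene's reads. The proportions were thus close, while the class and the placed 3′ end of the single-exon model changed. Without the genomic class the log2 ratio of Ppp1r3c would be -1.09 instead of -0.28. Ppp1r3a (chr6:14713977-14755274, minus strand) had 26 and 65 reads in its annotated transcript of 4 exons and 25 and 19 in the genomic class. In replicate 2, 18 of those 19 belong to a model whose recorded exon is 1 nt long, so the shape of these molecules is not described. Its internal exon of 62 nt was included in 29 of 34 (85.3%, 69.9 to 93.6) and 66 of 68 spanning reads (97.1%, 89.9 to 99.2), and a form of that exon 3 bases shorter had 3 and 1 reads.

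**Figure D3:**
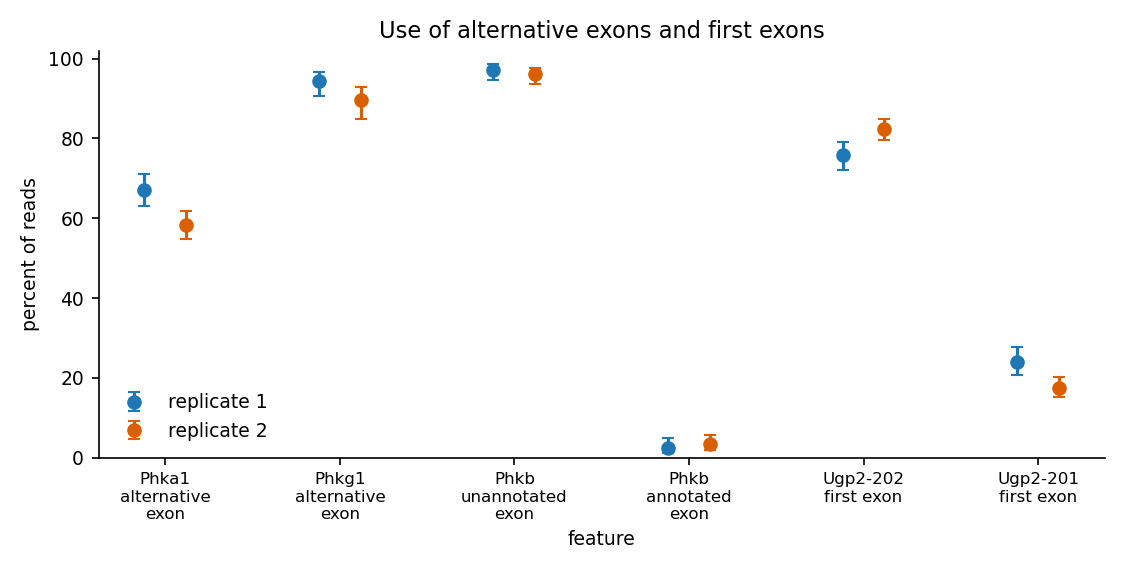
Percent of spanning reads that include each alternative exon, and percent of reads opening with each Ugp2 first exon, in replicate 1 and replicate 2 with 95% Wilson intervals. The intervals of the libraries are separate for the Phka1 exon and both Ugp2 first exons, and overlap for Phkg1 and Phkb.

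How far reads extended towards the 5′ end differed between the genes. Among reads outside the genomic class, and leaving out Ppp1r3c for the change of class described above, the share that contained the first exon was lowest in Pygm, whose annotated transcript of 20 exons measures 2874 nt: 62.4% (60.9 to 63.9) and 63.5% (61.9 to 65.1). It was higher in Phka1, whose transcript measures 6115 nt, at 88.0% (85.0 to 90.5) and 88.1% (85.6 to 90.2). Reads thus reached the first exon less often in the shorter and more abundant transcript, in both libraries. In Pygm, 83.1% and 85.3% of reads reached exon 5. At exon 4 the shares were 77.4% and 85.2%, a gap between the libraries that exon 5 did not show. Such shares rest on model starts placed in the authors' annotation step. Gys1, of 3678 nt, stood at 76.9% and 72.3%, Phkg1 at 85.6% and 88.4%, Phkb at 88.4% and 89.6%, Gbe1 at 95.1% and 96.6%, and Ugp2 at 97.4% and 97.9%. Leaving out the genomic class bears on these shares. That class held 25 of 59 and 19 of 88 Ppp1r3a reads, so the Ppp1r3a shares of 100% and 98.6% cover only part of its reads. For Gys1 it held 20 of 319 reads in replicate 1 and 0 of 501 in replicate 2, so its 2 shares are not on the same footing. Incomplete splice matches made up 36.5% and 35.7% of Pygm reads against 10.3% and 9.95% over all annotated genes. Their models were not all shorter than the annotated transcript. The longest model of a chain of 19 exons, which held 209 and 183 reads, was recorded at 3118 nt, a length that depends on placed model ends. Their source was not tested.

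**Figure D4:**
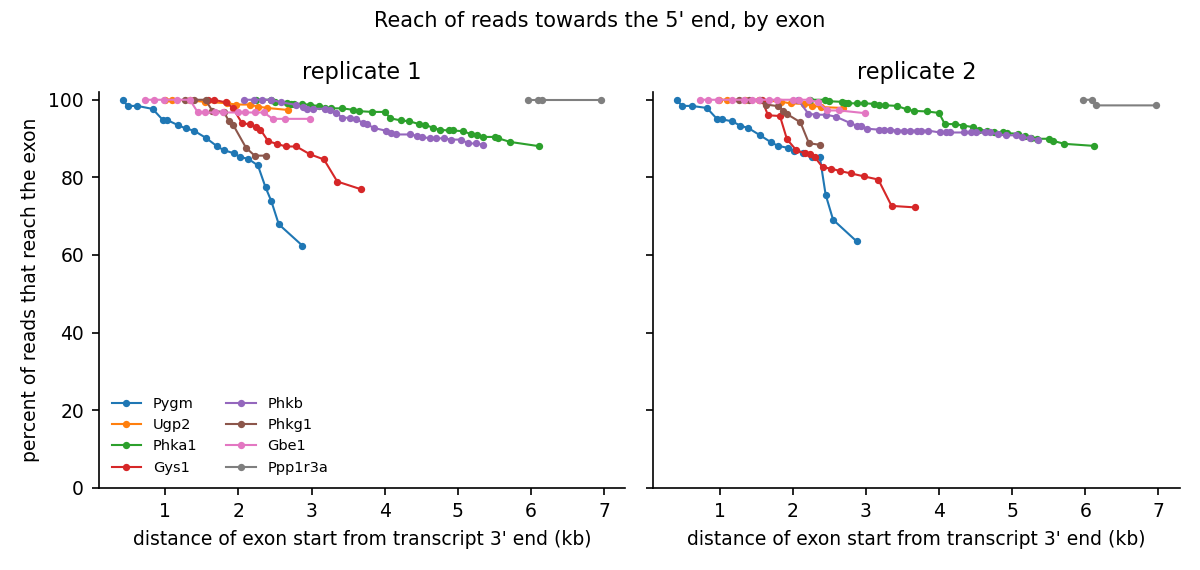
Percent of reads outside the genomic class that reach each exon, against the distance of the exon's start from the 3′ end of the annotated transcript in kb, for 8 genes in replicate 1 (left) and replicate 2 (right). Pygm falls to 62.4% and 63.5% at its first exon, and Ppp1r3c is left out because its single-exon reads were classed differently in the libraries. Ppp1r3a is drawn without its 25 and 19 genomic reads.

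**Figure D5:**
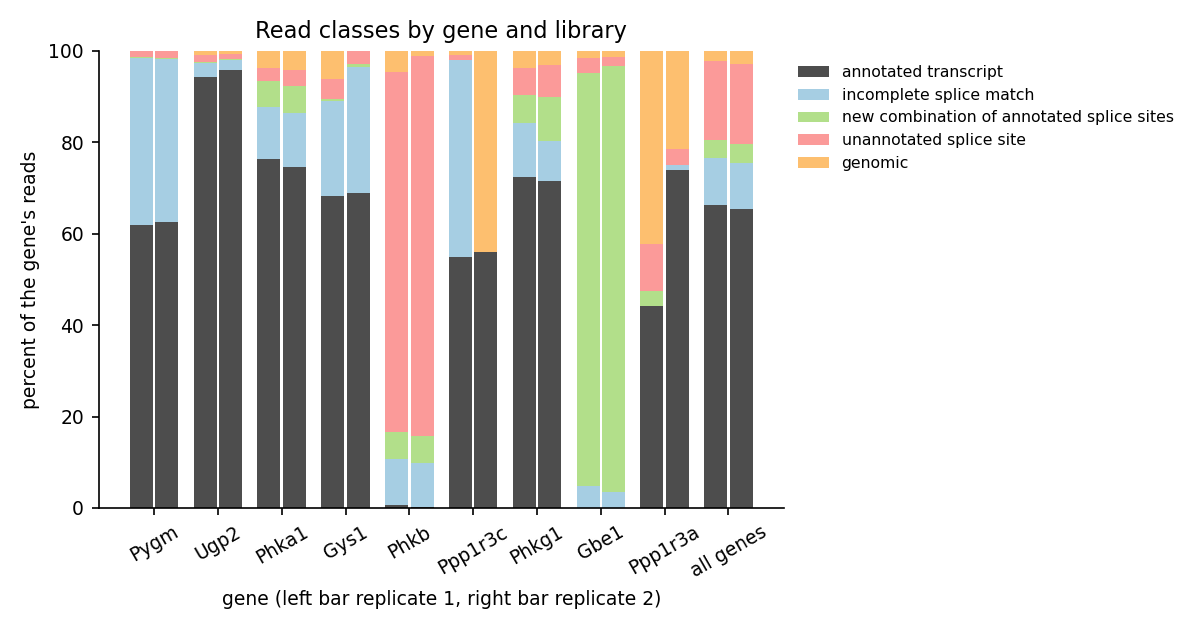
Read classes as percent of each gene's reads, left bar replicate 1 and right bar replicate 2, with all annotated genes at the right. Annotated transcripts hold most reads of Ugp2 and almost none of Phkb and Gbe1.

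Pygm itself was otherwise uniform. Pygm-201 (chr19:6384399-6398459, plus strand) took 2469 and 2114 reads, 61.3% and 62.1%, and its first donor opened 97.9% and 98.3% of reads that began with a first exon. Unannotated chains recurred in both libraries, each with 1 unannotated intron at the start of the transcript. The first began exon 2 further in by 2 bases, with 7 and 12 reads, and the other opened from a donor at position 6385118 inside the first intron, with 8 and 9 reads. No internal exon of Pygm, Gys1, Ugp2 or Gbe1 had a mean inclusion between 5 and 95%. Gys1 (chr7:45434844-45456619, plus strand) was led by Gys1-201, with 218 and 345 reads, 72.9% and 68.9% of its reads outside the genomic class.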

How the data were processed

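Per the file headers, the count columns hold whole-number TALON read counts of transcript models on mm10 with GENCODE M21 names, as deposited by the authors for each gastrocnemius library and not normalised. The sources used here do not give the aligner, and reads of both parental alleles are pooled. Model ends were placed in the authors' annotation step. The reach of reads towards the 5′ end, the model lengths and the 3′ end given for Ppp1r3c rest on these placed ends. Counts were summed per annotated gene, spike-in reads kept apart. Intervals are Wilson (shares), exact Poisson (levels) and exact conditional binomial (ratios), from scipy 1.17.1. TMM factors came from edgeR 4.0.16. Genomic models were left out of isoform shares and exon scoring. An internal exon was scored over reads with exons on both sides of it, as included where both edges matched, with at least 20 such reads in each library. Ratios over all genes used a prior count of 0.5. Beyond the 9 genes, paralogs and the leading gene of each subgroup by reads are named, apart from an item that is not reported here. Unannotated chains needed 5 reads in each library. The members, lists and rules were chosen with earlier results of these data known. The scripts were tested on simulated data. Sequences are from GENCODE M21 transcripts and RefSeq. Over 8626 genes the library counts differed by 6.21 times sampling noise (chi-square over its degrees of freedom), so they were not merged as copies of 1 library. Alternatives were annotated transcripts only, no genomic reads, other denominators, scalings, minimums and exon rules, and leaving out each library.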

Additional observations from a re-analysis of the deposited data

Results flagged for a closer look

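Reads on the strand opposite to a gene, which the comparisons above leave out, exceeded the 3 counts that a 0 allows in both libraries over the genes named here. The share of all annotated genes that pass this cut was not computed, so these reads do not set the 9 genes apart. Over Pygm there were 10 antisense reads in replicate 1 and 22 in replicate 2, or 0.248% and 0.642% of the reads on both strands. Phka1 had 6 and 21 (1.05% and 2.56%) and Phkb had 5 and 14 (1.55% and 3.23%). Gbe1 had 5 and 8 (7.46% and 5.16%) and Ppp1r3a 4 and 9 (6.35% and 9.28%), the highest shares of the 9 because the sense reads of these genes were few. Over all 9 genes antisense models held 40 and 96 reads. There is no control sample for these reads, and their source was not tested.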

How the results depend on the processing

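Counting annotated transcripts only had the largest effect. It lowered Phkb to 1.26 CPM, Gbe1 to 0, Pygm to 1883 CPM, Ppp1r3c to 136 CPM and Ppp1r3a to 34.9 CPM. It moved the log2 ratio of Phkb, on 2 and 1 reads, to -1.33 and that of Ppp1r3a to 1.00. Gbe1 was left without a ratio, and the median log2 ratio over the remaining genes was -0.045, so it does not cover the same genes. Inclusion of the Phkg1 exon went to 100%, since the skipping chain is not annotated. The median over all 9 genes was 0.07 with TMM factors, 0.06 with median-ratio size factors and 0.17 without genomic reads. Without genomic reads Ppp1r3c fell to 196 CPM, and counting its models with an intron only, an alternative chosen after the data were seen, gave 142 CPM. Over all genes, 538 were over 2-fold apart at a minimum of 20 summed reads and 4914 with no minimum, where single reads decide the ratio, against 190 at 50. Leaving Atp2a1 out of the denominator raised the level of each of the 9 genes by the same factor within a library, for example Pygm to 3553 CPM and Phka1 to 632 CPM. The shares in the 5 enzyme families moved by less than 1 SD or by under 0.05 percentage points under each alternative tried. Inclusion of the Phka1 exon and of both Phkb exons, and the Ugp2 first exon share moved by less than 1 SD. The Phkb exons could not be scored in annotated transcripts only. With 2 libraries, leaving out either gives the value of the other, which lies within 1 SD of the mean by construction. Depth limits Gbe1 and Ppp1r3a most, with 62 and 59 reads in replicate 1.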
